A study of Mus musculus with 8 samples.

Results

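Chromatin accessibility was examined around 7 mouse genes of cholesterol synthesis and its feedback control: Srebf2, Hmgcs1, Idi1, Sqle, Cyp51, Insig1 and Insig2. The genes were chosen with earlier results of these data known, and regions were assigned to them by position alone. A region belonged to a gene when that gene was the nearest protein-coding gene to it, measured to the gene's span and within 100 kb. Of 49587 consensus regions in the deposited ATAC-seq data, 41 met this rule, and none of them had a second gene equally near. The grouping is named for cholesterol synthesis and uptake, but these 7 genes encode synthesis enzymes and regulators, and none encodes an uptake receptor.

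ATAC-seq marks open DNA by where a transposase can insert sequencing adapters. Livers came from male C57BL/6 mice, 9 weeks old, after a 24 h fast, with 2 libraries for each of 4 genotypes. These were wild type (WT), a liver knockout of Cpt2 (Cpt2 L-/-), a knockout of Ppara (Ppara -/-), and both together (Cpt2 L-/- ; Ppara -/-), in which the loss of Ppara is described as whole-body. Cpt2 encodes an enzyme that long-chain fatty acids need for oxidation in mitochondria, while the product of Ppara is a nuclear receptor that fatty acids bind. The driver of the Cpt2 deletion and the deleted exons are not given in the labels, so peak calls at Cpt2 and Ppara check neither label. Wild type and Cpt2 knockout are called Ppara-intact below, and Ppara knockout and double knockout Ppara-null.

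Cholesterol is built from acetyl-CoA through mevalonate, isoprenoids, squalene and lanosterol. The transcription factor SREBP-2, encoded by Srebf2, switches on the enzymes of this pathway when sterols in the endoplasmic reticulum are scarce. The Insig proteins hold SREBP back in that membrane when sterols are plentiful, and in liver the pathway is known to be low in fasting. SREBP binds sterol regulatory elements in promoters, usually beside binding sites for the general factors NF-Y (CCAAT boxes) and Sp1 (GC boxes).

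The promoters themselves are shown first, because most of the genes had a region over a promoter that was called in all 8 libraries. The RefSeq promoter table (GRCm38.p6, the assembly of mm10) held windows of 300 bases for 6 of the 7 genes, and Sqle had none. Capitals mark matches on either strand to CCAAT, to the sterol regulatory element core TCACNCCAC, to the GC box GGGCGG, to the E-box CACGTG, or to the PPAR direct repeat, 2 copies of AGGTCA with 1 base between them. The first 3 windows belong to an enzyme, the regulator and the feedback gene, each with a promoter region called in every library.
Hmgcs1 promoter window, chr13:119690101-119690400, plus strand: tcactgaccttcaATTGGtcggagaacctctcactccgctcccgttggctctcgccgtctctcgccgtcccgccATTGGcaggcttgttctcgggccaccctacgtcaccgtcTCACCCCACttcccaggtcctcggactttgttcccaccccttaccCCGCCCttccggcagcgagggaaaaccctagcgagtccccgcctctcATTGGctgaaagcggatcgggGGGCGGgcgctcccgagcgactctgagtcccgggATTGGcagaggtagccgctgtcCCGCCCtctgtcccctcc
Srebf2 promoter window, chr15:82147019-82147318, plus strand: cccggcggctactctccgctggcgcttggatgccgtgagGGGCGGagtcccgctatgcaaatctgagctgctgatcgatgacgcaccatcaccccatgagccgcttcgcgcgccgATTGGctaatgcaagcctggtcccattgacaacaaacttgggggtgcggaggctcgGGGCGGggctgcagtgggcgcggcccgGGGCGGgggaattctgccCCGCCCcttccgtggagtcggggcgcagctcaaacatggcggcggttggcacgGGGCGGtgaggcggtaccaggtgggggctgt
Insig1 promoter window, chr5:28071162-28071461, plus strand: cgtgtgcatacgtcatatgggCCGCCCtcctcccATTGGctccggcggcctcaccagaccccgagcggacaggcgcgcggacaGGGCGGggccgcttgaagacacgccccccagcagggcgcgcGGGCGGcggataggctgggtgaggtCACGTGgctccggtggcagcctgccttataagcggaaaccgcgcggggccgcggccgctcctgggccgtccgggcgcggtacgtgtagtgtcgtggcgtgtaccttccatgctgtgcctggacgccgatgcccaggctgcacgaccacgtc
Insig2 is shown with the outermost of its 3 listed windows and with an inner one, because these 2 differed in their calls.
Insig2 outer promoter window, chr1:121332540-121332839, minus strand: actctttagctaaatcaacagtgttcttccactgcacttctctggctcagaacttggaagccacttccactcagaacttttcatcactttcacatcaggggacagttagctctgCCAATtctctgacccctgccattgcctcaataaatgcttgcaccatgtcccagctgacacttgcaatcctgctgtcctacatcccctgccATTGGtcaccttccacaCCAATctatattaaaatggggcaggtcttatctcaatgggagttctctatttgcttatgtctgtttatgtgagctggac
Insig2 inner promoter window, chr1:121327975-121328274, minus strand: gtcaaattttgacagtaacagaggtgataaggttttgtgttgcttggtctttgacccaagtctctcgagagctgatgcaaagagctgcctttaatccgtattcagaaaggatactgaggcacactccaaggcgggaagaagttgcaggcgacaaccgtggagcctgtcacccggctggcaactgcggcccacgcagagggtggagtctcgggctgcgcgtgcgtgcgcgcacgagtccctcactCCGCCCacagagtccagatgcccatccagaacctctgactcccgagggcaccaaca
Hmgcs1 was the only one of the 6 genes whose windows held the sterol regulatory element core, at position 114 from the window's 5′ end, together with 4 CCAAT boxes and 3 GC boxes. That core was present in 1.24% of all 32851 promoter windows, a CCAAT box in 37.4% and a GC box in 35.7%. Srebf2 had 5 GC boxes and 1 CCAAT box, and Insig1 had 3 GC boxes, 1 CCAAT box and the only E-box among the members, a motif found in 7.15% of all windows. The outer Insig2 window had 3 CCAAT boxes and no GC box, whereas the inner one had 1 GC box and no CCAAT box. No window of a member held the PPAR direct repeat, which occurred in 0.0396% of all windows. Such matches describe letters and not occupied sites, and a search for exact letters passes over variants of a motif.

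Peak lists of Ppara-intact libraries held 28733 to 39296 peaks and those of Ppara-null libraries 18132 to 22715, so fewer calls anywhere in the latter are part of a difference across the whole genome. A number carried in the peak names was 441 and 443 in wild type and 446 and 4717 in Cpt2 knockout libraries. In Ppara-null libraries it ran from 6831 to 6834. Any batch it stands for cannot be told apart from the genotype, and Cpt2 knockout 2, at 4717, stands apart from Cpt2 knockout 1. Reads are not counted in the files, so depth is unknown. As a check of the tissue, the hepatocyte genes Alb, Apoa2, Fgb and Cps1 each had a peak within 1 kb of a gene end in all 4 Ppara-intact libraries. In the Ppara-null libraries this held in 4, 4, 2 and 1 libraries, respectively. Over all regions within 1 kb of a gene end, 84.1% of region and library positions had a peak in Ppara-intact and 60.7% in Ppara-null libraries. Of 8 markers of other liver cells, 5 (Clec4f, Vsig4, Stab2, Clec4g and Krt19) had no such region in any library. Lrat and Reln, of stellate cells, had one in 3 Ppara-intact and no Ppara-null library, and Epcam, of bile duct cells, in 4 and 1. Their part in the results below was not tested.

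A region was called in a library when a deposited peak overlapped it by at least 1 bp. The 41 regions fell unevenly among the genes, with 13 at Insig1, 8 at Sqle, 7 at Insig2, 5 at Srebf2, 4 at Hmgcs1, 3 at Cyp51 and 1 at Idi1. Insig1 was rich in regions, since only 2.49% of the 15169 genes with any region had 13 or more and the median gene had 2. Of these 13, 12 lay outside the gene, 9 of them on the upstream side.

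Of the 41 regions, 12 (29.3%) were called in all 8 libraries, against 22.7% of all consensus regions. Each of the 7 genes had at least 1 such region. Another 8 (19.5%) were called in 1 library alone, against 23% of all regions. Within 1 kb of a gene end, 6 of 10 member regions were called in all 8 libraries, against 45.49% of all regions so placed. Outside genes this held for 3 of 21, or 14.29%, against 13.6% of all regions outside genes.

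**Figure D1:**
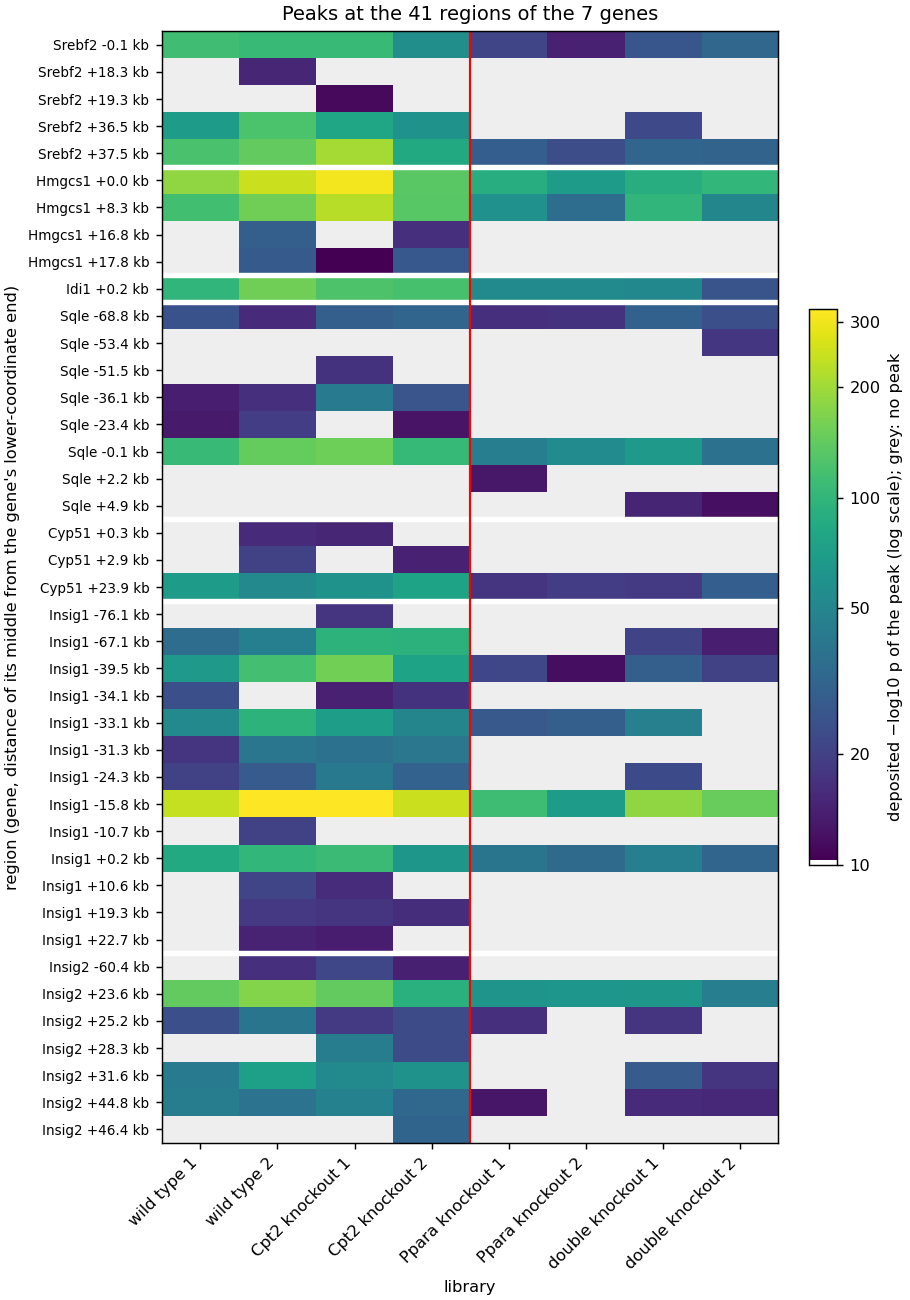
Each row is one of the 41 regions, labelled by gene and by the distance in kb of its middle from the gene's lower-coordinate end, and each column is a library. Colour gives the deposited −log10 p of the strongest overlapping peak on a log scale, grey means no peak, and the red line parts Ppara-intact (left) from Ppara-null libraries (right). The 12 rows without grey include at least 1 row for each gene, and 19 rows are grey in all 4 Ppara-null libraries.

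By Ppara status, the libraries separated in how many of the 41 regions they called. Wild type libraries called 23 and 32, Cpt2 knockout libraries 32 and 30, Ppara knockout libraries 16 and 13, and double knockout libraries 20 and 17. The lowest Ppara-intact library, wild type 1, thus stood above the highest Ppara-null library, double knockout 1. The means were 29.25 ± 4.27 and 16.5 ± 2.89 regions (SD, n = 4 each), a difference of -12.75 regions. As a share of region and library positions, 71.34% were called in Ppara-intact and 40.24% in Ppara-null libraries, close to the 69.42% and 38.86% of all consensus regions. In lists cut to the strongest 18132 peaks of each library, called equal-number lists here, the means were 18.5 ± 1.29 and 16.25 ± 2.99 (SD, n = 4 each), and the sides overlapped. There 45.12% and 39.63% of member positions were called, against 36.36% and 35.67% for all regions. By genotype, the mean was 14 in Ppara knockout and 18.5 in wild type, Cpt2 knockout and double knockout libraries. No p is given for these sums, since the genes were chosen with earlier results of these data known. In whole liver, fewer cells with an open site and a less open site in each cell cannot be told apart.

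**Figure D2:**
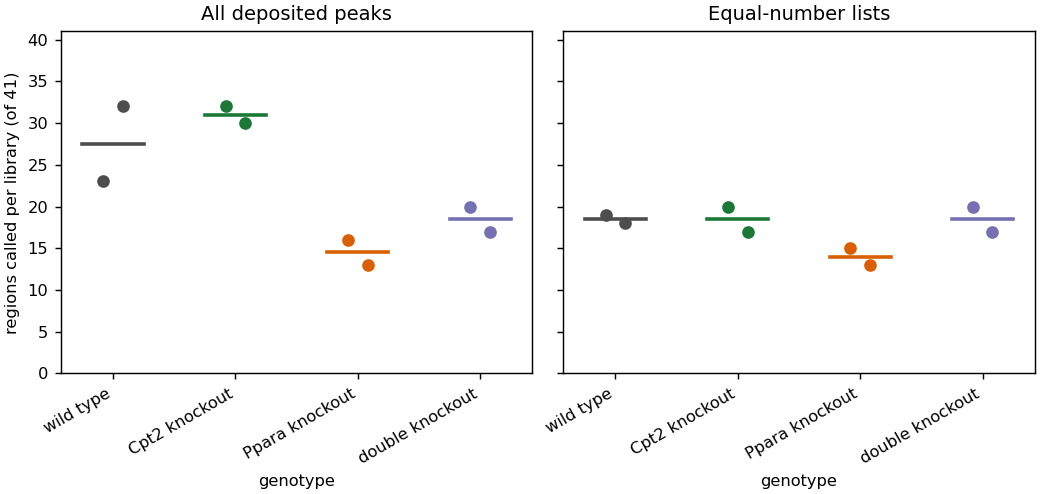
The number of the 41 regions called in each library (points, 2 per genotype) and the mean of each genotype (lines), with all deposited peaks on the left and in equal-number lists on the right. With all peaks the Ppara-intact libraries call 23 to 32 regions and the Ppara-null libraries 13 to 20, and in equal-number lists only the Ppara knockout, at 13 and 15, lies below the other genotypes, at 17 to 20.

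Complete separation by Ppara status, with a peak in every library on one side but in none on the other, was found at 2 of the 41 regions (4.88%), against 6.82% of all regions. Both were Ppara-intact only, and both lay outside their genes. The opposite kind numbered 0 among the members and made up 0.0686% of all regions. One lay 35908 bp from Sqle, at chr15:59278800-59279184, and had a −log10 p of 13.8 and 16.6 in wild type and 43 and 25.6 in Cpt2 knockout libraries. The other lay 31054 bp upstream of Insig1, at chr5:28039942-28040358, with 17.3 and 40.2 in wild type and 38.1 and 40.8 in Cpt2 knockout libraries. These were weak to middling peaks, at percentiles 12.1 to 58.8 and 24.3 to 60.3 of their own lists by −log10 p. In equal-number lists 1 and 3 of the 4 Ppara-intact libraries still called them and no Ppara-null library did, so that 0 member regions separated completely there, against 0.811% of all regions. Both had a two-sided exact permutation p of 0.0286, the smallest that 4 libraries against 4 can give. After Benjamini-Hochberg adjustment over all 49587 regions the exact permutation p was 0.415, so neither passed, and no region in the whole table did, although 3418 had an unadjusted p below 0.05. With so large a smallest p, a region could pass only if most regions separated completely, so the test cannot decide for single regions.

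Shares under a looser count were near those of the genome at large. Regions called in at least 1 Ppara-intact and no Ppara-null library numbered 19 (46.3%), against 42.3% of all regions. The reverse held for 3 (7.32%), against 5.43% of all regions, and all 3 belonged to Sqle. Of the 21 member regions called in all 4 Ppara-intact libraries, 12 (57.1%) were also called in all 4 Ppara-null ones, against 46.8% of the 24051 such regions in the genome.

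The regulator Srebf2 (gene 20788, chr15:82147269-82205379) lies 3.53 Mb from Ppara on the same chromosome. Whether the targeted Ppara locus bears on calls here was not tested. Its 5 regions all touched the gene. The promoter region, at chr15:82146830-82147597, was called in every library. There the fold, MACS2's ratio of pileup at the summit to local background, was 11.9 and 10.9 in wild type, 10.6 and 8.81 in Cpt2 knockout, 5.61 and 4.71 in Ppara knockout, and 6 and 7.42 in double knockout libraries. All 4 Ppara-null values lay below all 4 Ppara-intact ones, an order found at 60% of the 11258 regions called in all 8 libraries. A broad region inside the gene, at chr15:82184403-82185158, had folds of 9.35, 9.54, 11.5 and 8.41 in the Ppara-intact and of 6.21, 5.79, 6.47 and 6.53 in the Ppara-null libraries, again without overlap. Its neighbour at chr15:82183517-82184050 was called in all 4 Ppara-intact libraries, at folds of 6.43 to 8.63, and in double knockout 1 alone among the others, at 5.17. The remaining 2 regions were each called in 1 Ppara-intact library.

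Hmgcs1 (gene 208715, chr13:119690351-119708260) encodes the cytosolic HMG-CoA synthase at the entry to the mevalonate pathway. The region over its promoter, at chr13:119689906-119690811, is the one that holds the sterol regulatory element core printed above. Its fold was 16.5 and 18.4 in wild type, 20.2 and 15.1 in Cpt2 knockout, 14.3 and 11.2 in Ppara knockout, and 12.7 and 14.3 in double knockout libraries. A second region, inside the gene at chr13:119698406-119698860, reached folds of 18.6, 19.5, 22.9 and 19.8 in the Ppara-intact and 13.6, 9.81, 18.1 and 12.4 in the Ppara-null libraries. It held the highest fold of any member region, in Cpt2 knockout 1. At the far end of the gene, chr13:119707004-119707294 was called in 2 and chr13:119707994-119708368 in 3 Ppara-intact libraries, and neither in a Ppara-null one.

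Idi1 (gene 319554, chr13:8885606-8892396), the isomerase that makes the reactive isoprenoid unit, had a single region, at chr13:8885389-8886165 over its promoter. The fold was 14.9 and 16.5 in wild type, 15.8 and 15 in Cpt2 knockout, 10.9 and 10.3 in Ppara knockout, and 11 and 7.85 in double knockout libraries. The Ppara-null folds all lay below the Ppara-intact ones, as at 60% of all regions called in all 8 libraries. The lowest value belonged to double knockout 2.

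Sqle (gene 20775, chr15:59315092-59331193) encodes squalene epoxidase, which commits squalene to sterols, and lies 26.4 Mb from Ppara. The region at its lower-coordinate end, chr15:59314566-59315325, had folds of 13.7 and 15 in wild type, 16.2 and 12.5 in Cpt2 knockout, 8.72 and 8.16 in Ppara knockout, and 10 and 7.93 in double knockout libraries. The Ppara-null folds were all lower, as at 60% of all regions called in all 8 libraries. A region 68447 bp away, at chr15:59245989-59246645, was called in all 8 libraries with folds that did overlap, between 5.89 and 8.97 with Ppara and between 5.95 and 8.75 without it. Sqle was also the only member with regions called in Ppara-null libraries alone. These were chr15:59319873-59320107, inside the gene, in both double knockouts at folds of 4.58 and 4.31, chr15:59317188-59317407 in Ppara knockout 1 and chr15:59261533-59261777 in double knockout 2. All were low in their lists, at percentiles 8.5 to 39 by −log10 p. Of its regions outside the gene, chr15:59291517-59291802 was called in 3 Ppara-intact libraries and chr15:59263459-59263758 in Cpt2 knockout 1 alone.

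Cyp51 (gene 13121, chr5:4080674-4104697), the lanosterol demethylase, had 1 region called throughout, over its promoter at chr5:4104107-4105008. Folds were 11.4 and 8.88 in wild type, 10.1 and 10.9 in Cpt2 knockout, 5.56 and 5.59 in Ppara knockout, and 5.85 and 8.13 in double knockout libraries. The Ppara-null values were again all lower, as at 60% of all regions called in all 8 libraries. Double knockout 2 was nearest to the other side. Its 2 other regions were each called in 2 Ppara-intact libraries only.

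Insig1 (gene 231070, chr5:28071412-28078662) is itself a target of SREBP and closes the feedback loop. Its promoter region, chr5:28070811-28072356, was the widest of the 41 at 1546 bp. Folds were 7.86, 8.01, 8.61 and 7.05 in the Ppara-intact and 6.29, 5.82, 6.63 and 5.89 in the Ppara-null libraries. By −log10 p the promoter region stood at percentiles 74 to 89.3 of the libraries' own lists. A region 15492 bp upstream, at chr5:28055219-28055920, was stronger, with folds of 17.9 and 19.3 in wild type, 17.8 and 15.8 in Cpt2 knockout, 13.9 and 13.3 in Ppara knockout, and 18.1 and 17.7 in double knockout libraries. In this region the double knockout folds lay within the Ppara-intact range and both Ppara knockout folds lay below it. By −log10 p the Ppara-null values all lay lower, at 184 and 147 in double knockout and 111 and 70 in Ppara knockout libraries. The Ppara-intact libraries had 240 to 326. Farther out, the region 39113 bp upstream at chr5:28031576-28032299, had folds of 9.84, 11.7, 13 and 8.28 in the Ppara-intact and 6.33, 4.72, 7.87 and 6.27 in the Ppara-null libraries. The remaining 10 regions were called in 1 to 7 libraries, and 7 of them in no Ppara-null library.

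Insig2 (gene 72999, chr1:121304353-121332662) is the second sterol sensor and is known to be transcribed in liver from alternative promoters. The region over its inner windows, chr1:121327635-121328316, was called in every library, with folds of 12.1 and 12.5 in wild type, 10.1 and 8.02 in Cpt2 knockout, 7.89 and 9.76 in Ppara knockout, and 9.24 and 7.44 in double knockout libraries. Both Cpt2 knockout values lay below both wild type ones. The same order was found at 3 of the 12 member regions called in all 8 libraries, also at the Srebf2 promoter and 15492 bp upstream of Insig1, against 7.22% of all such regions. The opposite order was found at 2, inside Hmgcs1 and 68447 bp from Sqle, against 12.9%. Both counts are for fold, and by −log10 p wild type and Cpt2 knockout overlapped at the Insig1 and Hmgcs1 regions. The region over the outer window, chr1:121332478-121332827, was called in both Cpt2 knockout libraries and in no other, with folds of 4.81 and 3.61. It was the only 1 of the 41 regions (2.44%) called in both Cpt2 knockout and no wild type libraries, against 3.63% of all regions, and in equal-number lists only 1 Cpt2 knockout library still called it. The reverse held for 0 member regions, against 0.512% of all regions. In equal-number lists the counts were 0, against 0.918%, and 1 for the reverse, against 0.815%. That region was chr1:121329379-121329698, inside Insig2, which with all peaks was called in 6 libraries, at folds of 3.29 to 5.18, and missing in Ppara knockout 2 and double knockout 2. Upstream of the gene, chr1:121348787-121349490 was called in all but Ppara knockout 2, at folds of 6.73 to 9.13 in the Ppara-intact libraries and of 4.47, 4.71 and 5.01 in the 3 others. Of the last 2 regions without a call in any Ppara-null library, chr1:121243620-121244261 was called in 3 libraries and chr1:121350601-121350900 in 1.

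Across the 12 regions called in all 8 libraries, the 4 Ppara-null folds all lay below the 4 Ppara-intact ones at 9, against 60% of the 11258 such regions in the genome. For −log10 p this held at 11 of 12, against 76.4%. The ratio of mean fold, Ppara-null over Ppara-intact, had a median of 0.656 over the 12 regions, from 0.562 at the Srebf2 promoter to 0.942 at the distant Sqle region, and a median of 0.680 over all 11258. The lower folds at the members were thus near those of the genome in size.

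**Figure D3:**
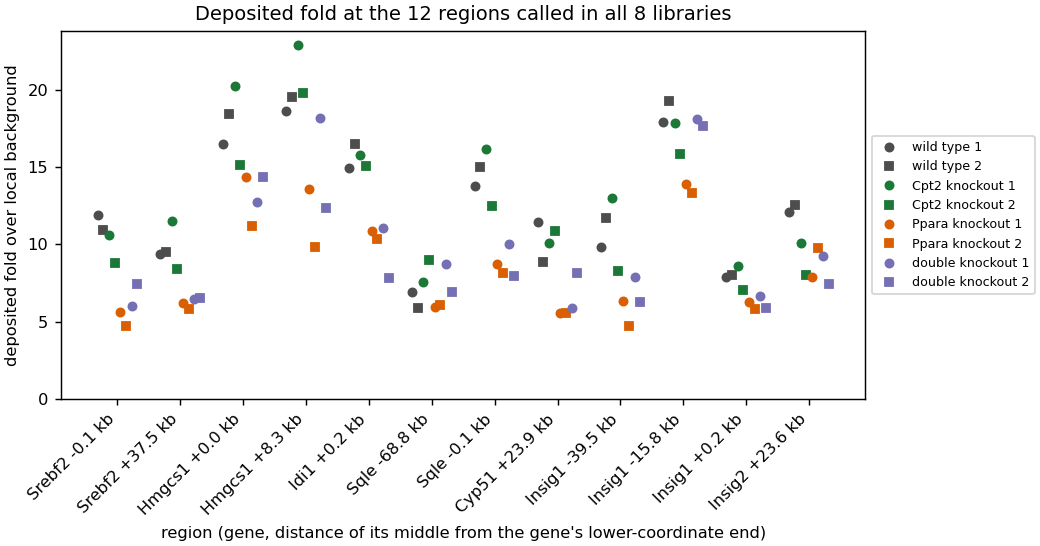
Deposited fold over local background at the 12 regions called in every library, with circles for replicate 1, squares for replicate 2 and colours for genotypes. The Ppara knockout and double knockout points lie below those of the other genotypes at 9 regions, and the sides overlap at the Sqle region at -68.8 kb, at the Insig1 region at -15.8 kb and at Insig2.

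Because every list differs in length and strength, each region was also ranked by −log10 p within its library among the same 11258 regions. On this scale the sides separated at 3 of the 12. The Srebf2 region inside the gene stood at percentiles 88.6, 80.3, 93.3 and 62.1 in the Ppara-intact and 48.6, 44.2, 45.5 and 60.8 in the Ppara-null libraries. The Insig1 region 39113 bp upstream stood at 58.7, 68.6, 84.1 and 55.3 against 26.9, 3.13, 40.2 and 31.7. So 2 regions ranked lower in all Ppara-null libraries, as did 5.77% of the 11258. The Sqle region 68447 bp away ranked higher in all of them, at 12.4, 20.8, 41.8 and 43.9 against 9.11, 0.426, 3.90 and 6.8, as did 6.82% of the 11258.

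At the promoters and gene ends the percentiles of the 2 sides overlapped. That of Hmgcs1 stood at percentiles 89.3 to 98.7 with Ppara and 93.6 to 98 without it, and the end of Sqle at 76.8 to 83.8 and 71.5 to 90.3. The Srebf2 promoter ranged from 33.7 to 86.7 and from 9.84 to 63.8, the widest spread among them. The strongest member region, 15492 bp upstream of Insig1, stood at 95.2 or above in each library.

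**Figure D4:**
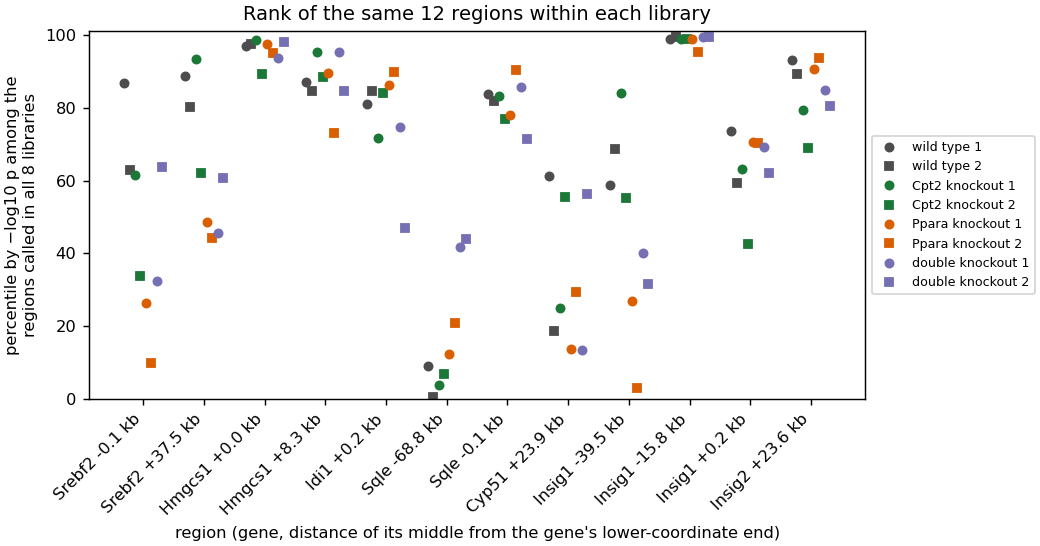
Percentile of the same 12 regions by −log10 p among the 11258 regions called in every library, within each library, with symbols and colours by library. The Hmgcs1 promoter and the Insig1 region at -15.8 kb stay near the top in all 8, while the Srebf2 region at +37.5 kb and the Insig1 region at -39.5 kb lie lower, and the Sqle region at -68.8 kb higher, in all 4 Ppara-null libraries.

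Loss of Cpt2 was read at each Ppara status. With Ppara present, Cpt2 knockout libraries called 31 ± 1.41 and wild type libraries 27.5 ± 6.36 regions (SD, n = 2 each), a difference of 3.5 that is smaller than the gap between the 2 wild type libraries. Without wild type 1 the difference was -1, and in equal-number lists it was 0. With all peaks, 75.61% and 67.07% of member positions were called, against 74.53% and 64.3% for all regions. With Ppara absent, double knockout libraries called 18.5 ± 2.12 and Ppara knockout libraries 14.5 ± 2.12 regions (SD, n = 2 each), a difference of 4, and 4.5 in equal-number lists. These were 45.12% and 35.37% of member positions with all peaks, against 40.01% and 37.71% for all regions. In equal-number lists they were 45.12% and 34.15%, against 35.78% and 35.56%. With 2 libraries against 2 no test of these differences was made.

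Toward the latter difference, 3 of the 41 regions (7.32%) were called in both double knockout and no Ppara knockout libraries, against 2.33% of all regions, and 0 the other way, against 1.45%. One is the Sqle region called in double knockouts alone. The other 2 were called in all libraries of the other 3 genotypes and missing only in Ppara knockout (4.88%, against 1.3% of all regions). At chr5:28004034-28004592, 66820 bp upstream of Insig1, folds were 9.22 and 9.77 in wild type, 13.2 and 12.7 in Cpt2 knockout and 6.12 and 4.98 in double knockout libraries. At chr1:121335758-121336196, 3096 bp outside Insig2 on its upstream side, they were 7.81 and 10.9, 7.49 and 8.29, and 7.16 and 5.21, in the same order. The Ppara knockout lists held 20340 and 18283 peaks and the double knockout lists 22715 and 18132, and in equal-number lists 3 regions of Insig1 and Insig2 had this pattern, against 0.518% of all regions.

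Of the pairs that set a Ppara-intact against a Ppara-null genotype, Cpt2 knockout against Ppara knockout differs in both genes. In both Cpt2 knockout and no Ppara knockout libraries, 11 regions (26.8%) were called, against 21% of all regions, and 0 the other way, against 0.28%. In both wild type and no Ppara knockout libraries, 7 regions (17.1%) were called, against 13.6% of all regions, and 0 the other way, against 0.46%. In both wild type and no double knockout libraries, 3 (7.32%) were called, against 12.9%, and 1 the other way, against 1.2%. In both Cpt2 knockout and no double knockout libraries, 7 (17.1%) were called, against 20.4%, and 1 the other way, against 0.597%. These pairs share libraries with one another.

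A list of 17 other genes of the sterol pathway gave a wider view. It held enzymes from Acat2 to Dhcr7, with Scap for sterol sensing, Stard4 for sterol transport and Mylip, which acts on lipoprotein uptake, and left out several known genes of the pathway. These genes had 50 regions, of which 22 (44%) were called in all 8 libraries, against 22.7% of all regions, and 15 of the 17 genes had at least 1 such region. Called regions per library averaged 42 ± 4.24 in Ppara-intact and 28 ± 2.45 in Ppara-null libraries (SD, n = 4 each). These are 84% and 56% of positions, against 69.42% and 38.86% for all regions. In equal-number lists the means were 29.75 ± 0.5 and 27 ± 1.41 (SD, n = 4 each), or 59.5% and 54% of positions, against 36.36% and 35.67% for all regions. Complete separation by Ppara status was found at 4 regions (8%), against 6.82% of all regions, all Ppara-intact only. In equal-number lists it was found at 1 (2%), against 0.811%, the more distant of those at Sc5d. They lay 281 bp from Dhcr7, a sterol reductase, 1047 bp from Mvd, a decarboxylase of mevalonate metabolism, and 7086 and 10733 bp from Sc5d, a sterol desaturase. Their lowest and highest folds were 5.66 and 9.49 at Dhcr7, 4.21 and 5.50 at Mvd, and 4.30 and 7.79, then 5.82 and 7.03, at Sc5d.

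One further region, singled out after its values were seen, lay inside Lss, the gene of lanosterol synthase, at chr10:76537524-76537942. It was called in all 4 Cpt2-null libraries (Cpt2 knockout and double knockout) and in no other, a pattern of 0.0968% of all regions that no member region had. Its fold was 9.97 and 5.97 in Cpt2 knockout and 4.97 and 4.19 in double knockout libraries, and in equal-number lists 3 of these 4 libraries called it.

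Among 1308 other genes with at least 8 regions, the share of a gene's regions called in each library was compared with that of the 41 member regions over the 8 libraries. The highest Pearson correlations were 0.998 for Iqgap2, 0.995 for Igfbp2 and Sik3, 0.994 for Jade1 and 0.992 for Rora. The median gene had 0.900 and all consensus regions together 0.982. Every gene's share comes from the same 8 lists, whose lengths go with Ppara status, and the part of either was not tested.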

How the data were processed

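ATAC-seq libraries from liver covered 4 genotypes with 2 libraries each. Reads were aligned with BWA and peaks called per library with MACS2 2.1.0 on mm10, per the submitters' processing notes and peak names; read filters and the transposase offset are not given in the sources used here. Each deposited list gives a score, a fold of pileup over local background (a ratio), and the −log10 of a p and of a q, all the authors' own; the score is not reported here. The authors' consensus table holds positions only. No read counts or depth were used.

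Regions were assigned with the RefSeq table (GRCm38.p6, 21900 protein-coding genes). Where several peaks met a region, the one with the highest −log10 p gave its values. Alternatives were equal-number lists (18132 peaks), a 50% cover, a −log10 q of at least 20, a 10 kb limit, a block for replicate number, and each library left out in turn. For every consensus region, the number of libraries with a call was compared by Ppara status in a two-sided exact permutation test with Benjamini-Hochberg adjustment. Nothing says which libraries are separate animals, so p-values measure only the spread between libraries. Scripts (Python 3.11.15, NumPy 2.4.6, pandas 2.3.3, matplotlib 3.10.9) were tested on simulated intervals. The rule for naming covered the 7 genes with their regions, and other pathway genes where a region separated by Ppara status; Lss was named outside it. Members and lists were chosen with earlier results of these data known, and ranks among regions called in all 8 libraries were added after seeing the data. One further gene of the planned pathway list was left out of every count and is not reported here.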

Additional observations from a re-analysis of the deposited data

How the results depend on the processing

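The difference in member regions called per library by Ppara status, -12.75, kept its sign under every alternative run. It was -2.25 in equal-number lists and -4.75 with a gene limit of 10 kb, where 22 regions are left, and -14.83 to -11.58 with 1 library left out. The -2.25 is smaller in size than the SD between libraries of one Ppara status, 3.65 with all peaks. In equal-number lists the double knockout mean, 18.5, equalled those of wild type and Cpt2 knockout, and only that of Ppara knockout, 14, was lower. The number of completely separated regions, 2, was 0 in equal-number lists and 0 at 10 kb, and 2 to 5 with 1 library left out. It was 5 without wild type 1, 4 without double knockout 1, and 2 or 3 without any other library. Leaving out a library can only keep or raise this count, and why these 2 libraries raised it most was not tested. Cpt2 knockout minus wild type, 3.5, ranged from -1 to 8 with 1 library left out, and only leaving out wild type 1 turned its sign. Double knockout minus Ppara knockout, 4, ranged from 2.5 to 5.5. With a replicate block, permuting status within replicate numbers, the smallest adjusted p of a member region was 0.806, against 0.415 without it, and the block allows no exact permutation p below 0.0556. Deviations of same-numbered libraries had correlations between -0.031 and 0.026 across regions. With 2 libraries per genotype, these values cannot show whether same-numbered libraries were handled together. Without read counts, a missing peak cannot be set apart from a peak just under the authors' threshold.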
